A study of Mus musculus with 8 samples.

Results

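Thyroid hormone transport, activation and reception in the fetal mouse brain were followed through 7 genes, *Slco1c1*, *Crym*, *Dio2*, *Dio3*, *Thra*, *Thrb* and *Hr*. They were chosen by name from the pathway with earlier results of the same stress vs. control comparison known, so their differences between the groups are a description and carry no test. The tables listed 54752 genes, and all 7 were among the 17865 genes that passed the filter on low counts.

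RNA-seq was performed on single wild-type C57BL/6 fetal brains (forebrain, midbrain and hindbrain together) at embryonic day E15.5. The control group held 4 brains of fetuses whose dam was not exposed to stress (F36 and F37, both female, and M30 and M31, both male). The stress group held 4 brains of fetuses whose dam went through chronic unpredictable mild stress (CUMS), a changing series of mild stressors during pregnancy (F34 and F35, both female, and M28 and M29, both male). By the study's sample sheet all 4 control brains were littermates and all 4 stress brains were littermates of another dam, so the effect of the litter and that of the condition cannot be told apart, and the p-values measure only the spread between littermates. In whole-brain RNA, fewer cells of a type and less RNA per cell cannot be told apart either. Library totals ran from 25320109 to 29105710 counts, and 26944 to 27366 genes had at least 1 count in a library.

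Thyroid hormone reaches the fetal brain mainly as the prohormone T4, in early gestation from the maternal circulation, and crosses the brain barriers through membrane transporters, among them OATP1C1 (*Slco1c1*). Inside the brain the type 2 deiodinase (*Dio2*) turns T4 into the active T3, and the type 3 deiodinase (*Dio3*) inactivates both hormones. T3 acts in the nucleus through the receptors encoded by *Thra* and *Thrb*, which pair with retinoid X receptors, and *Crym* encodes a cytosolic T3-binding protein while *Hr* encodes a corepressor that is itself a known T3 target.

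Promoter windows, the 250 bases before the transcription start in RefSeq (build GRCm38.p6), were available for 4 of the 7 genes, 5 windows in all, and were read to show what lies next to the genes whose levels are given below. Each was searched on both strands for AGGTCA, the core motif bound by thyroid hormone receptors, and, after the *Dio2* window had been seen, for the cyclic AMP response element TGACGTCA. The *Slco1c1* window (chr6:141524104-141524353, plus strand), shown because this gene differed most between the groups, held neither motif. Its RefSeq start lies 14 bases from the first base of the gene in the annotation used for counting.
Slco1c1: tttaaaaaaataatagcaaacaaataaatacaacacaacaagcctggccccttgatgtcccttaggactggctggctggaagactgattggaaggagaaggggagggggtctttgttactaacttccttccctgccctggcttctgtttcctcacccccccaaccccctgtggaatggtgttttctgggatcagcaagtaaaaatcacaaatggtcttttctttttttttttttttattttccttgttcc
In the *Dio2* window (chr12:90739039-90739288, minus strand), capitals mark the cyclic AMP response element, which began 95 bases before the start. Here the RefSeq start lies 600 bases from the first base of the counted gene.
Dio2: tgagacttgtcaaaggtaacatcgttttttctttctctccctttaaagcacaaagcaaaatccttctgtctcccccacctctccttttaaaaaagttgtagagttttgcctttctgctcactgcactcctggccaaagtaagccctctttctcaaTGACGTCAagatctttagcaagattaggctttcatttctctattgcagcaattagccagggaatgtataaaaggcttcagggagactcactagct
The AGGTCA motif, in capitals, was found in 1 of the *Thrb* windows, 184 bases before its RefSeq start, while the other *Thrb* window held neither motif. That start lies 699 bases past the first base of the counted gene, so the site lies inside the gene as counted. The 30 bases around the site are shown (chr14:17660764-17660793, plus strand).
Thrb: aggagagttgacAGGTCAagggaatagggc
AGGTCA was held by 4607 of 32851 windows of the same length (14%) and by 1 of the 5 windows of these genes, and TGACGTCA by 508 windows (1.55%) and again 1 of the 5. Neither motif contains the other. A match describes the letters in the window and is not a measured binding site. *Dio3* had neither motif in its window, and *Crym*, *Thra* and *Hr* were not matched.

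The members spanned a wide range of levels, read as CPM (counts scaled to a common library size by TMM) per kilobase (kb) of exon. *Thra*, the receptor gene transcribed throughout the developing brain, was far above the rest at 119 ± 6.43 CPM per kb (mean ± SD, n = 8), above 98.6% of the genes tested. *Crym* followed at 4.09 ± 0.421 CPM per kb and *Slco1c1* at 3.86 ± 0.802 CPM per kb, both near the middle of the genes tested, and the ranges of these neighbours overlapped. *Dio3* stood at 1.93 ± 0.0885 CPM per kb and *Hr* at 1.17 ± 0.0711 CPM per kb. The lowest levels were those of *Dio2* at 0.453 ± 0.0876 CPM per kb and *Thrb* at 0.320 ± 0.0551 CPM per kb, which overlapped each other and exceeded 14.6% and 10.6% of the genes tested. *Thra* was 293 to 470 times as high as *Thrb* per kb in the individual brains. In every brain the inactivating deiodinase gene stood above the activating one per kb. *Thra* also encodes a non-binding splice form, and the counts per gene do not separate the forms.

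**Figure D1:**
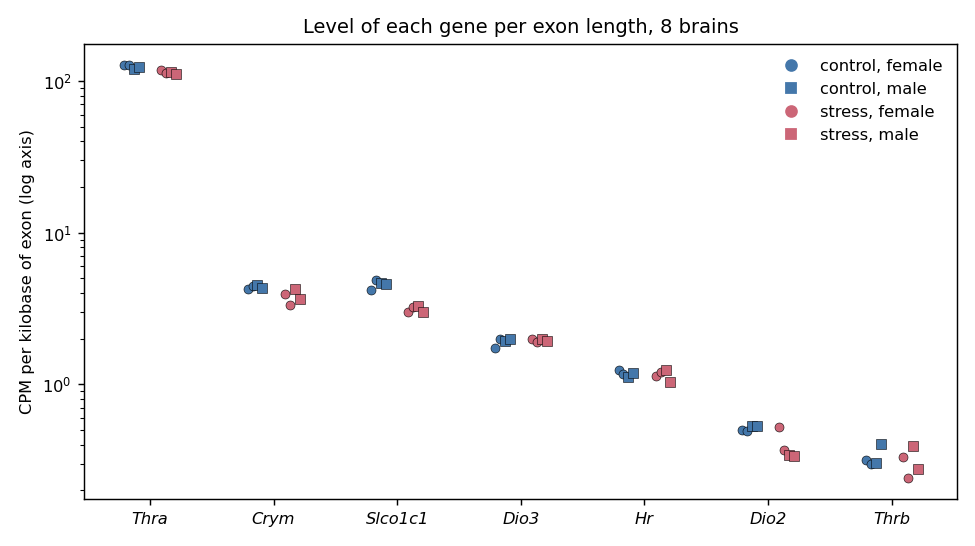
Level of each gene in CPM per kb of exon (y axis, log scale) in the 8 brains, ordered by mean; circles are females, squares males, blue control and red stress. *Thra* lies above 111 CPM per kb in every brain, while *Dio2* and *Thrb* stay below 0.54 CPM per kb.

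Between the groups, 3 of the 7 genes, *Slco1c1*, *Thra* and *Crym*, were called lower in the stress brains, none was called higher, and 4 were not called (edgeR quasi-likelihood test across all genes, adjusted p under 0.05). Over all genes tested, 13.8% were called in either direction, 7.27% lower and 6.49% higher. The values of the 4 brains per group did not overlap for the same 3 genes, against 16.4% of all genes tested. Because the genes were chosen with this comparison known, nothing is read from these counts. The gene lists below were chosen with it known too. Their counts of calls and adjusted p-values are therefore a description, to be read beside the same shares of all genes. The log2 fold change (Log2FC, stress vs. control) was negative in 6 of the 7, with a median of -0.13, and the median of all genes tested was 0.0015.

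**Figure D2:**
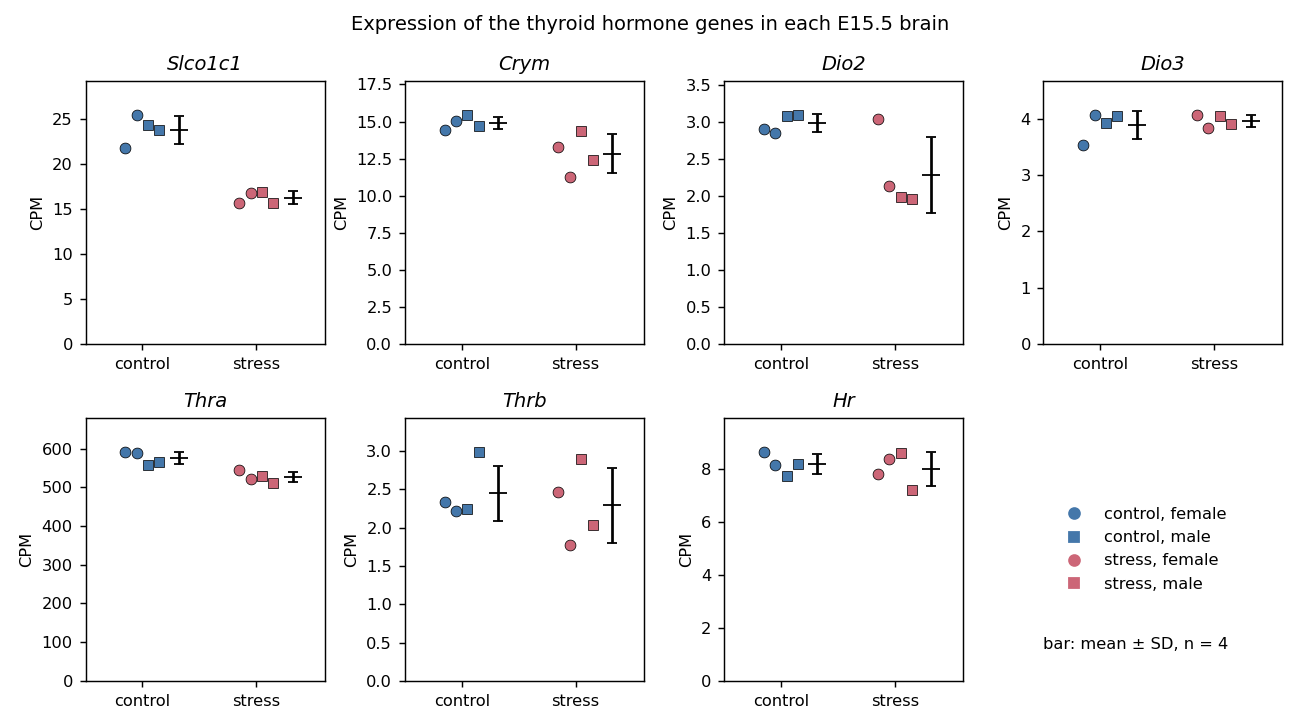
CPM of each gene (y axes, from 0) in the 4 control and 4 stress brains, with circles for females, squares for males and the mean ± SD of each group (n = 4) beside the points. *Slco1c1*, *Thra* and *Crym* show no overlap between the groups, while for *Dio2* the single stress brain F34 lies at the control level.

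*Slco1c1*, the gene of the T4 transporter OATP1C1 of brain capillaries and choroid plexus, lies on chr6:141524368-141570177 (plus strand, mm10, 14 merged exons, 5186 exon bases). It measured 21.7 CPM in control F36, 25.3 CPM in F37, 24.2 CPM in M30 and 23.7 CPM in M31. The stress brains measured 15.6 CPM (F34), 16.8 CPM (F35), 16.9 CPM (M28) and 15.7 CPM (M29). All 4 stress brains were below all 4 control brains, with a gap between the groups wider than the range within either of them. The group means were 23.8 ± 1.53 CPM and 16.2 ± 0.694 CPM (SD, n = 4 each), a Log2FC of -0.55 (SE 0.056), or 0.684 times the control level. Of the 17865 genes tested, 178 (0.996%) had a lower Log2FC. The difference was of like size in the females alone, at -0.54 (SE 0.084), and in the males alone, at -0.56 (SE 0.072). With 425 to 719 counts per brain, counting error alone gives a coefficient of variation of 4.24%, and the brains varied by 6.44% among the control brains and 4.27% among the stress brains. Leaving out each brain in turn moved the Log2FC between -0.60 and -0.50.

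Some genes of the vessel wall and of the barrier were lower as well, and others were not. Of 15 endothelial and blood-brain barrier markers, 5 were lower and 2 higher in the stress brains, with a median Log2FC of -0.13. Their summed level ran from 315 to 339 CPM in the control brains and from 298 to 311 CPM in the stress brains, without overlap, and no marker was at 0. The VEGF receptor genes *Flt1* and *Kdr* fell, with a Log2FC of -0.41 (SE 0.055, edgeR adjusted p = 2.19e-05) and -0.29 (SE 0.044, edgeR adjusted p = 8.35e-05). *Esam*, an endothelial adhesion molecule, was lower with a Log2FC of -0.23 (edgeR adjusted p = 0.0169), and was not called without control F37 (-0.22), without control M31 (-0.18) or without stress F34 (-0.21). *Cldn5*, the tight junction claudin of brain endothelium, had a Log2FC of -0.13 (edgeR adjusted p = 0.0267) and kept the call in only 3 of the 8 fits that left out 1 brain. DESeq2 called neither *Esam* (adjusted p = 0.052) nor *Cldn5* (adjusted p = 0.0807), and 3 of the 15 markers in all. The efflux transporter gene *Abcg2* rose, at 0.23 (edgeR adjusted p = 0.00278), and *Lef1* was higher at 0.17 (edgeR adjusted p = 0.0223), called in 3 of the 8 fits without 1 brain. The 8 uncalled markers ran from -0.25 (*Ocln*) to 0.14 (*Mfsd2a*). Among them were *Pecam1* (-0.09), *Cdh5* (-0.05), *Emcn* (-0.03) and the glucose transporter gene *Slc2a1*, at -0.10 (edgeR adjusted p = 0.0689).

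The CPM of *Slco1c1* was also set against that of each endothelial marker in the same brain. The ratio was lower in the stress brains without overlap for 13 of the 15 markers, and the groups overlapped for *Flt1* and *Abcb1a*, an efflux pump gene. Because *Slco1c1* itself was apart between the groups, its ratio to a gene that changed little is apart as well. Nothing is read from this count. Its CPM divided by that of *Slc2a1* was 0.341 to 0.382 in the control brains and 0.244 to 0.281 in the stress brains. Divided by *Cldn5* it was 0.549 to 0.651 against 0.418 to 0.480. Divided by *Flt1*, the called marker that fell most, it was 0.923 to 1.07 against 0.869 to 0.940. Divided by *Abcg2*, which rose, it was 1.30 to 1.54 against 0.734 to 0.855. A narrower or wider gap follows from dividing by a gene that itself fell or rose in the same comparison. These ratios describe the same libraries, and the part of the vascular markers in the *Slco1c1* value was not tested.

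**Figure D3:**
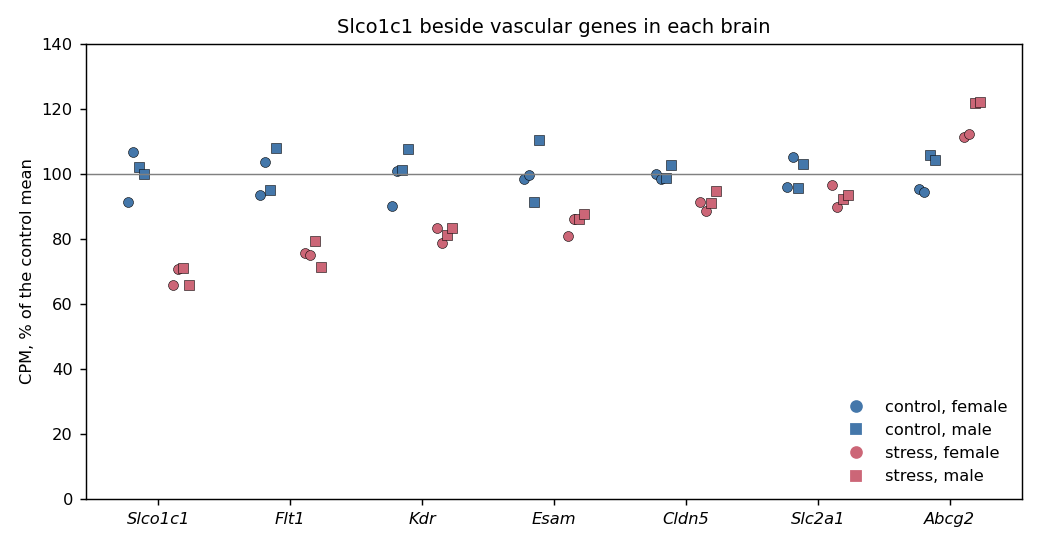
CPM of *Slco1c1* and 6 endothelial and barrier genes as a percentage of each gene's control mean (y axis, from 0; grey line at 100) in each brain, with circles for females, squares for males, blue control and red stress. *Slco1c1* and *Flt1* lie lowest in the stress brains, *Slc2a1* overlaps between the groups, and *Abcg2* lies higher.

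Most of the other carriers of thyroid hormone were not called. Of 13 further transporters and carriers, 8 were tested, of which 1 was lower, 1 was higher and 6 were not called, and the median Log2FC was -0.05. *Slc7a5* and *Slc3a2*, which together form the amino acid transporter LAT1, had values of 0.07 (edgeR adjusted p = 0.135) and -0.06 (edgeR adjusted p = 0.226).

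*Ttr*, the gene of the T4 carrier transthyretin made by choroid plexus, was called higher at a Log2FC of 1.91 (SE 0.47, edgeR adjusted p = 0.00717), but the groups overlapped widely. Its level was 6.95, 0.564, 1.05 and 2.04 CPM in control F36, F37, M30 and M31 and 29.9, 6.76, 5.02 and 0.656 CPM in stress F34, F35, M28 and M29. A single stress brain, F34, held the highest value, and DESeq2 gave an adjusted p = 0.412. Without F34 the Log2FC was 0.86 and without control F37 1.22, both uncalled in edgeR. Among 9 tested of 10 choroid plexus markers, 3 were called higher (*Ttr*, *Otx2* at 0.19 with an edgeR adjusted p = 0.00294, and *Kcne2* at 1.02 with an edgeR adjusted p = 0.0475 and 4 to 24 counts) and none lower. The 6 uncalled markers ran from -0.37 (*Kl*) to 0.30 (*Clic6*), and *Prlr* (-0.25) was lower without overlap between the groups. The *Kcne2* groups overlapped, and 1 of the 8 fits without 1 brain made the call. DESeq2 did not make it (adjusted p = 0.227) and called 1 marker of the list, *Otx2* (adjusted p = 0.0053). *Otx2* was highest in stress M29 (44.2 CPM), the stress brain with the lowest *Ttr* level. Whether its value reflects the choroid plexus was not tested. The summed level of the list was 65.1 to 78.2 CPM in control and 72.5 to 106 CPM in stress, and the groups overlapped. Most of it was *Otx2* (34.7 to 41.2 CPM in control, 41.4 to 44.2 CPM in stress) and *Enpp2* (21.6 to 26.3 CPM and 22.4 to 28.3 CPM). No marker was at 0, and the part of the list in the *Slco1c1* value was not tested.

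Of 8 other genes of the *Slco* family, 5 were tested and 1 was called. *Slco2a1*, a prostaglandin transporter, fell with a Log2FC of -0.41 (SE 0.12, edgeR adjusted p = 0.0207) at 72 to 110 counts, a call that DESeq2 did not make (adjusted p = 0.0961), that 4 of the 8 fits without 1 brain kept, and that was absent in females alone (-0.21). The most abundant of the family, *Slco5a1* and *Slco3a1*, had values of 0.10 (edgeR adjusted p = 0.0535) and -0.07 (edgeR adjusted p = 0.275). The median over the 5 was -0.07.

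*Crym* encodes mu-crystallin, which binds T3 in the cytosol, and lies on chr7:120186380-120202111 (minus strand, 7 merged exons, 3391 exon bases). The control brains measured 14.4 CPM (F36), 15.02 CPM (F37), 15.4 CPM (M30) and 14.7 CPM (M31), and the stress brains 13.3 CPM (F34), 11.3 CPM (F35), 14.4 CPM (M28) and 12.4 CPM (M29). The control brains lay close together, with a coefficient of variation of 2.87% against 10.3% in the stress brains, and M28 of the stress group all but reached the lowest control. The means were 14.9 ± 0.427 CPM and 12.8 ± 1.33 CPM (SD, n = 4), a Log2FC of -0.21 (SE 0.066), or 0.863 times the control level. *Crym* was the called member nearest to the threshold, and *Dio2* the nearest one outside it. The *Crym* call was made in 3 of the 8 fits without 1 brain and not by DESeq2. It was lost without control F36 (-0.22), F37 (-0.19) or M30 (-0.21) and without stress F35 (-0.16) or M29 (-0.18). The value was -0.26 (SE 0.096) in females alone and -0.17 (SE 0.088) in males alone.

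*Dio2*, the T4-activating deiodinase of glia and tanycytes, lies on chr12:90724552-90738438 (minus strand, 2 merged exons, 5815 exon bases). The control brains were close together at 2.91 CPM (F36), 2.86 CPM (F37), 3.08 CPM (M30) and 3.09 CPM (M31). In the stress group F34 measured 3.04 CPM, F35 2.13 CPM, M28 1.99 CPM and M29 1.97 CPM. Thus 3 of the 4 stress brains were below every control brain and the fourth lay among them. The Log2FC was -0.39 (SE 0.14), not called, from means of 2.99 ± 0.120 CPM and 2.28 ± 0.511 CPM (SD, n = 4). Without F34 it was -0.56 (SE 0.14) and called, and with no filter on low counts it was -0.39 and called. In males alone it was -0.64 (SE 0.19) and called, and in females alone -0.15 (SE 0.19) and not called. DESeq2 gave -0.39 and did not call it (adjusted p = 0.189). These values rest on 54 to 88 counts per brain, and the exact 95% Poisson interval, which covers counting error only, is 40.6 to 70.5 for 54 counts (F35) and 67.0 to 104 for the 84 counts of F34. F34 was also the brain with the highest *Ttr* level, and whether this bears on its *Dio2* value was not tested.

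*Dio3*, the deiodinase that inactivates T4 and T3, is a single-exon gene on chr12:110279068-110281097 (plus strand, 2030 exon bases) in an imprinted domain. It measured 3.53, 4.05, 3.92 and 4.04 CPM in control F36, F37, M30 and M31, and 4.06, 3.83, 4.04 and 3.90 CPM in stress F34, F35, M28 and M29. The stress brains lay in the upper part of the control range, F34 at its top, with means of 3.89 ± 0.245 CPM and 3.96 ± 0.109 CPM (SD, n = 4) and a Log2FC of 0.03 (SE 0.10). At 97 to 116 counts the counting error (9.57%) exceeded the variation seen within either group. The ratio of *Dio3* to *Dio2* per kb was 3.47 to 4.07 in the control brains (median 3.69) and 3.82 to 5.83 in the stress brains (median 5.41), where F34 held the lowest value.

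Some of its imprinted neighbours were lower in the stress brains. Of 7 other genes of the *Dlk1*-*Dio3* domain, 3 were lower, none was higher and 4 were not called, with a median Log2FC of -0.09. The noncoding RNA gene *Meg3* fell by 0.18 on the log2 scale (SE 0.028, edgeR adjusted p = 0.000126), from 2714 ± 66.5 CPM to 2399 ± 157 CPM (SD, n = 4), and was -0.12, not called, in females alone. *Rian*, another noncoding RNA of the domain, had a Log2FC of -0.13 (edgeR adjusted p = 0.0042). *Begain* had a Log2FC of -0.14 (edgeR adjusted p = 0.00717) and lost the call without stress M29 (-0.11). In females alone *Rian* (-0.09) and *Begain* (-0.12) were not called either. Whether *Dio3* differs from them was not tested.

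Of 12 genes that make or degrade deiodinases or recycle iodide, 10 were tested and 1 was called. *Wsb1*, an adaptor of the ubiquitin ligase that acts on the type 2 deiodinase, rose with a Log2FC of 0.15 (SE 0.026, edgeR adjusted p = 0.000252). It went from 370 to 397 CPM in the control brains to 422 to 432 CPM in the stress brains, without overlap. *March6*, another ubiquitin ligase gene with that role, had a Log2FC of 0.00018 (edgeR adjusted p = 0.998). *Dio1*, the liver and thyroid deiodinase, had 0 or 1 count per brain and was not tested.

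*Thra*, the main thyroid hormone receptor gene of the fetal brain, lies on chr11:98740638-98769006 (plus strand, 17 merged exons, 4614 exon bases). It measured 591 CPM in control F36, 588 CPM in F37, 557 CPM in M30 and 566 CPM in M31, and 545 CPM in stress F34, 520 CPM in F35, 529 CPM in M28 and 512 CPM in M29. Every stress brain was below every control brain, by a narrow margin between F34 and the control male M30. The means were 575 ± 16.5 CPM and 526 ± 13.9 CPM (SD, n = 4), a Log2FC of -0.13 (SE 0.026), or 0.915 times the control level, and 17.2% of all genes tested had a lower Log2FC. At 13169 to 16665 counts per brain the counting error is 0.808%, below the variation of 2.87% and 2.63% within the groups. The Log2FC stayed between -0.14 and -0.11 when each brain was left out, and was -0.15 (SE 0.038) in females and -0.11 (SE 0.035) in males. Of its exon bases 263 (5.7%) are overlapped on the other strand by *Nr1d1*, which had 197 to 243 counts, and the counting gives no strand setting.

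*Thra* is strongly transcribed in neurons, and some markers of neurons and progenitors differed between the groups. Of 9 neuron markers, 5 were called lower, none higher and 4 were not called, with a median Log2FC of -0.09, and DESeq2 called 4. *Rbfox3* and *Gap43*, of postmitotic neurons and growing axons, were lower at -0.13 (edgeR adjusted p = 0.0088) and -0.12 (edgeR adjusted p = 0.00524). *Syt1* and *Stmn2* were lower at -0.11 and -0.09 with overlapping groups, calls that 5 and 3 of the 8 fits without 1 brain kept, while *Tubb3* had -0.02 (edgeR adjusted p = 0.694). The other uncalled markers were *Map2* (-0.04), *Elavl3* (-0.03) and *Dcx* (0.06). The summed neuron markers ran from 7760 to 8006 CPM in control and from 7584 to 7919 CPM in stress, and the groups overlapped. Of 9 progenitor and radial glia markers, 5 were called higher, none was called lower and 4 were not called, and DESeq2 called 4. Among those higher were the proliferation gene *Mki67* at 0.21 (edgeR adjusted p = 3.25e-05) and *Pax6* at 0.14 (edgeR adjusted p = 0.00384). *Vim* was higher at 0.12 and *Sox2* at 0.12, the latter not without stress M28 (0.10), and *Fabp7* had -0.02 (edgeR adjusted p = 0.76). The other uncalled markers were *Hes5* (-0.10), *Hes1* (-0.08) and *Slc1a3* (-0.04), so all 4 were negative. The summed progenitor markers were 1672 to 1782 CPM in control and 1723 to 1862 CPM in stress, and the groups overlapped. No marker of either list was at 0, and their part in the *Thra* value was not tested.

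*Thrb*, the other receptor gene, lies on chr14:17660261-18038090 (plus strand, 14 merged exons, 7403 exon bases). Its level was 2.33, 2.22, 2.25 and 2.99 CPM in control F36, F37, M30 and M31 and 2.46, 1.78, 2.89 and 2.04 CPM in stress F34, F35, M28 and M29. A male was the highest brain in each group, and the groups overlapped over most of their range. The means were 2.45 ± 0.363 CPM and 2.29 ± 0.490 CPM (SD, n = 4), with a Log2FC of -0.09 (SE 0.15). At 45 to 85 counts the counting error is 12.3%, so a difference of the size seen for *Thra* was not detectable at this depth.

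*Hr*, encoding the corepressor hairless that binds the receptors, lies on chr14:70552212-70573548 (plus strand, 21 merged exons, 6919 exon bases). It measured 8.63, 8.14, 7.73 and 8.19 CPM in control F36, F37, M30 and M31, and 7.79, 8.37, 8.61 and 7.19 CPM in stress F34, F35, M28 and M29. Of the stress brains, M29 lay below the control range and the others lay within it. The means were 8.17 ± 0.368 CPM and 7.99 ± 0.638 CPM (SD, n = 4), with a Log2FC of -0.03 (SE 0.079) on 208 to 247 counts.

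**Figure D4:**
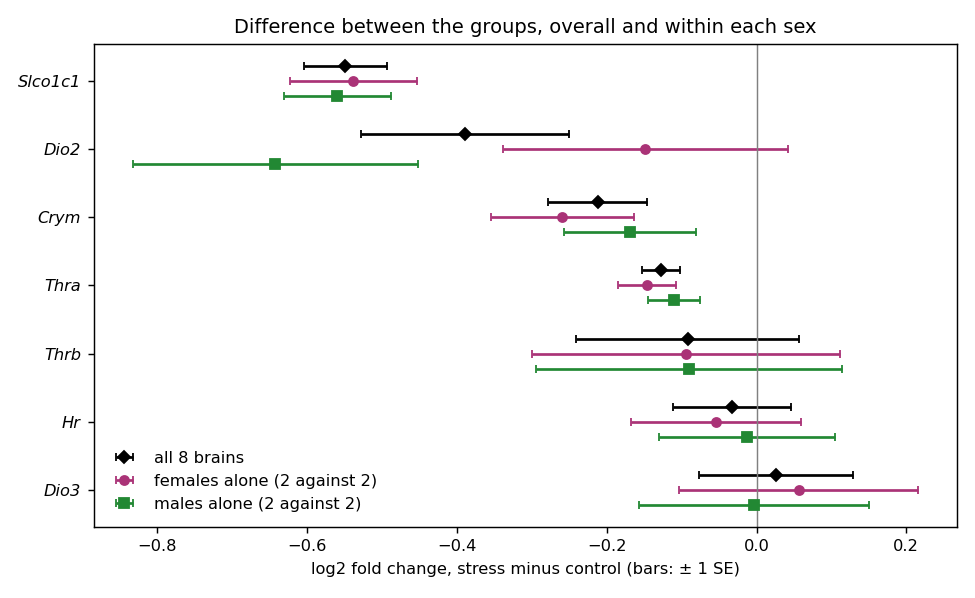
Log2FC (x axis, stress minus control; bars ± 1 SE) of each gene over all 8 brains (black), in females alone (purple) and in males alone (green), 2 brains against 2 in each sex. *Slco1c1*, *Thra* and *Crym* are negative in both sexes, and *Dio2* is -0.15 in females and -0.64 in males.

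Of 16 receptor partners and coregulators, all tested, 2 were lower and none was higher. The retinoid X receptor gene *Rxrg* fell with a Log2FC of -0.30 (SE 0.063, edgeR adjusted p = 0.00193), from 16.8 ± 1.29 CPM to 13.6 ± 0.674 CPM (SD, n = 4). The coactivator gene *Ncoa1* fell with a Log2FC of -0.14 (SE 0.030, edgeR adjusted p = 0.00284). The groups did not overlap for these 2 genes, and both calls were made in all 8 fits without 1 brain. In single sexes *Rxrg* was -0.42 in females and -0.18, not called, in males, and *Ncoa1* was -0.09, not called, in females and -0.18 in males. The corepressor gene *Ncor1* and its deacetylase partner *Hdac3* had values of -0.01 (edgeR adjusted p = 0.918) and 0.07 (edgeR adjusted p = 0.105). The median over the 16 genes was -0.01.

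Among 18 genes known to respond to T3 in brain, 2 were lower, 1 was higher and 15 were not called, with a median Log2FC of -0.08. *Nrgn*, the neuronal calmodulin-binding protein neurogranin, measured 11.98, 13.1, 11.2 and 12.8 CPM in control F36, F37, M30 and M31 and 9.31, 8.06, 8.82 and 8.77 CPM in the stress brains F34, F35, M28 and M29. Its groups lay clearly apart, with a Log2FC of -0.49 (SE 0.072, edgeR adjusted p = 6.38e-05). *Itpr1*, an intracellular calcium channel, had a Log2FC of -0.18 (SE 0.051, edgeR adjusted p = 0.0167), which was not called without control M31 or stress M29 (both -0.13) or in females alone (-0.09). *Aldh1a3*, a retinoic acid synthesis enzyme, was higher at 0.32 (SE 0.10, edgeR adjusted p = 0.0343), a call made in 1 of the 8 fits without 1 brain and not by DESeq2 (adjusted p = 0.144). *Reln* and *Sema7a*, the most abundant of the list per kb, had values of -0.01 (edgeR adjusted p = 0.922) and -0.07 (edgeR adjusted p = 0.202).

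Genes of the hypothalamus, pituitary and thyroid were scarce. Of 14 such genes, 6 were tested and none was called by edgeR or by DESeq2, with 1 at an unadjusted p under 0.05 in edgeR. Growth hormone (*Gh*) and prolactin (*Prl*) had no count in any brain. The most abundant per kb, *Trh* (thyrotropin-releasing hormone) and *Pomc*, had values of -0.30 (edgeR adjusted p = 0.164) and -0.27 (edgeR adjusted p = 0.265) on 44 to 71 and 40 to 58 counts. The median of the 6 was -0.24. The summed list ran from 10.5 to 10.9 CPM in control and from 8.09 to 9.95 CPM in stress, without overlap.

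**Figure D5:**
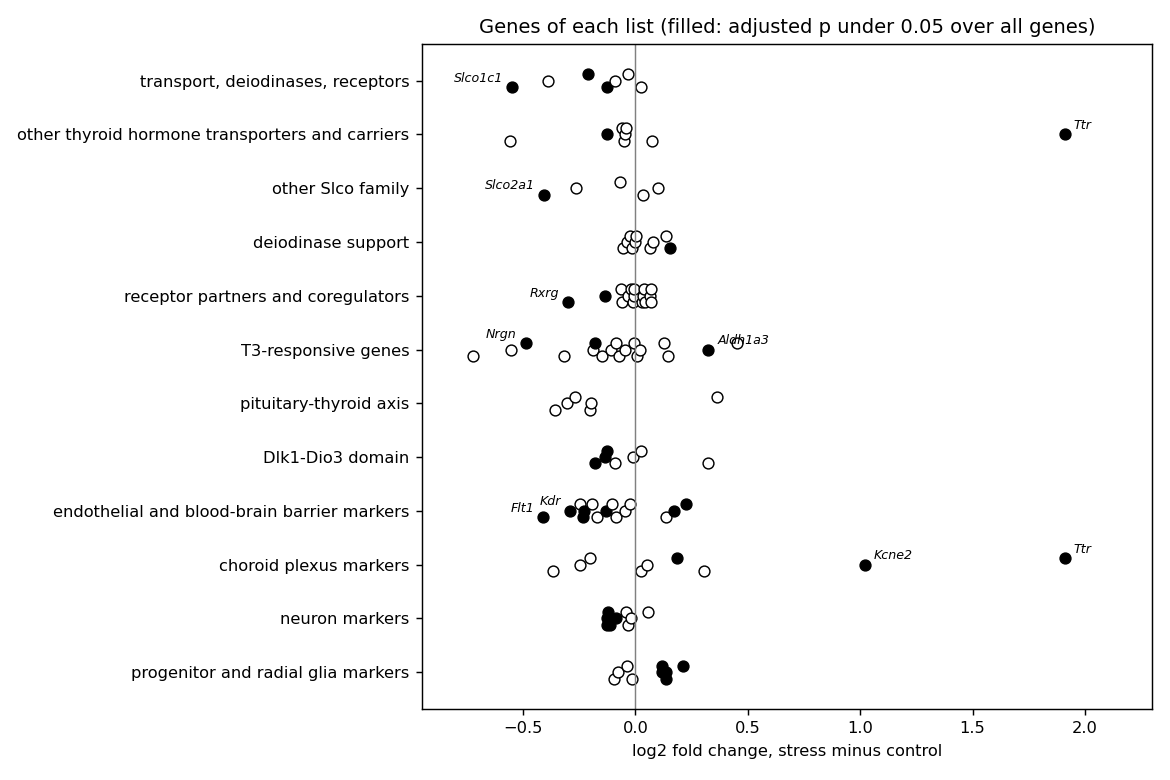
Log2FC (x axis, stress minus control) of each tested gene of the lists on transport, deiodinases, receptors, T3 response and cell types (y axis); filled points passed an adjusted p of 0.05 over all genes, open points did not, and filled points beyond 0.25 are named. Most points lie within 0.25 of 0, and the called genes further out include *Ttr* and *Kcne2* above it and *Slco1c1*, *Nrgn*, *Flt1* and *Slco2a1* below it.

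Other cell types were followed by 3 further marker lists. Of 9 meningeal fibroblast markers, 7 were tested and 3 collagen genes were higher, *Col1a1* at 1.59, *Col1a2* at 0.79 and *Col3a1* at 1.04 (edgeR adjusted p = 0.00732, 0.0125 and 0.00249). All 3 overlapped between the groups, none was called by DESeq2, and stress M28 was the highest brain. Without M28, *Col1a1* (0.84) and *Col1a2* (0.37) were not called, and *Col1a2* was not called without control M30 (0.70) or M31 (0.61). Of 6 microglia markers none was called by either tool and none had an unadjusted p under 0.05 in edgeR, with *C1qa* at -0.05 and *C1qb* at -0.07. Of 8 erythroid markers, the embryonic globins *Hba-x* at 1.09 (edgeR adjusted p = 2.21e-05) and *Hbb-y* at 0.84 (edgeR adjusted p = 0.00012) were higher, *Hbb-bs* was lower at -0.14 (edgeR adjusted p = 0.00976, not called without control F37 or stress F34) and *Hba-a1* had -0.04 (edgeR adjusted p = 0.477). The part of these lists in the values of the thyroid hormone genes was not tested.

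Sex, which played no part in the choice of genes, was tested over the same 8 brains. None of the 7 genes differed between females and males in edgeR or in DESeq2, and none had an unadjusted p under 0.05 in edgeR, against 0.0896% of all genes called. The lowest adjusted p was 0.855 for *Thra* (edgeR), whose mean was 561 CPM in the 4 females and 541 CPM in the 4 males (Log2FC 0.05, SE 0.026). *Thrb* had the widest difference, with 2.20 CPM in females and 2.54 CPM in males (Log2FC -0.21, SE 0.15, edgeR adjusted p = 0.896). The interaction of sex and stress was called for 0.0056% of all genes and for none of the 7 by edgeR or DESeq2, and none had an unadjusted p under 0.05 in edgeR. *Dio2* came nearest, with a difference of 0.49 (SE 0.26, edgeR adjusted p = 0.817) between its Log2FC in females and in males. With 2 brains per sex and group, these standard errors are wide, and the missing calls do not show that the sexes respond alike.

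The genes whose log2 CPM ran most like that of each member over the 8 brains were named by Pearson's r, a description that the group difference itself enters. *Slco1c1* ran with *Zcchc12* (r = 0.986), *Epb41l3* (r = 0.981) and *Ptpro* (r = 0.980). *Thra* ran with *Svop* (0.990), *Gm16105* (0.987) and *Cilp2* (0.986), and *Crym* with *Gm8234* (0.973), *Tmem204* (0.973) and *Dirc2* (0.961). *Dio2* ran with *Hectd4* (0.974), *Shank1* (0.967) and *Letm2* (0.965), and *Dio3* with *Mfap3* (0.977), *Pcdhga3* (0.944) and *Zfp551* (0.936). *Thrb* ran with *Folr1* (0.971), *Neb* (0.964) and *Inpp5b* (0.959), and *Hr* with *Bcam* (0.968), *Thpo* (0.962) and *Arhgap22* (0.950). All 8 points of each r share the same libraries, and the highest of 17865 values is high by selection.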

How the data were processed

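Total RNA of 8 E15.5 brains was sequenced as 1 library each. The authors used TopHat2 2.1.1 to align paired reads to mm10, took the number of read pairs per GENCODE gene from featureCounts 1.6.3, and deposited these raw counts with no normalization. Of 54752 identifiers, 54723 were matched to symbols.

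Genes were filtered with filterByExpr (minimum count 10, by group), scaled by TMM and tested with the quasi-likelihood test of edgeR 4.0.16 (R 4.3.3, limma 3.58.1) with sex and condition, Benjamini-Hochberg adjusted over 17865 genes and called at an adjusted p under 0.05. The fit was checked on simulated data. Log2 CPM used a prior count of 2. Coordinates are 1-based mm10. Members and lists were chosen with earlier results of these data known. Named were the 7 members, up to 4 called genes per list by p, the 2 most abundant per kb, and 3 genes most correlated with each member. *Nr1d1*, *Abcb1a*, *Dio1*, *Gh*, *Prl* and some further markers of the endothelial, choroid plexus, neuron and progenitor lists were named after their values were seen. Alternatives were median-of-ratios size factors, no filter, DESeq2 1.42.0, no sex term, each sex alone and each brain left out. The other animals of the study were not analysed here, and 1 gene of the transporter list is not reported here.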

Additional observations from a re-analysis of the deposited data

Results flagged for a closer look

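The level of *Dio2* in stress F34, 3.04 CPM, stood far from the other 3 stress brains, which ranged from 1.97 to 2.13 CPM, and the gap took up 0.847 of the range of the group. The level of *Thrb* in control M31, 2.99 CPM, stood apart from the other 3 control brains, at 2.22 to 2.33 CPM, with a gap of 0.858 of the range. These brains held 84 counts of *Dio2* and 85 counts of *Thrb*. Of 42 groups examined in this way, 2 stood out, and chance alone gives about 1 in 20.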

How the results depend on the processing

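No paired analysis was possible because the labels give no replicate number to brains of both groups. Of 98 alternative values of the members' Log2FC, 82 kept direction and side of the threshold, and *Slco1c1* and *Thra* kept theirs in all fits of both sexes together. The 2458 genes called for stress became 702 in females alone, 1533 in males alone and 1590 to 2365 with 1 brain left out, the lowest without stress M29. Of 33 called list genes named by p or abundance in their list, 24 were called by DESeq2, 29 without the sex term, 12 in females alone and 21 in males alone. The 16 genes called for sex became 64 with no filter. The 1 gene called for the interaction became 37 with no filter, 2 in DESeq2 and 0 to 6 with 1 brain left out, with 0 without control F36 or M30, 5 without control M31, 2 without stress F34, 6 without F35, 4 without M28 and 5 without M29.

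The values that changed sign were small and uncalled, and the cause was not tested. With 1 brain left out, the Log2FC for stress ran from -0.0185 to 0.0593 for *Dio3* (-0.0035 in males alone), -0.21 to 0.011 for *Thrb*, -0.091 to 0.014 for *Hr*, -0.020 to 0.014 for *March6*, -0.030 to 0.013 for *Ncor1*, -0.029 to 0.020 for *Reln*, -0.031 to 0.00036 for *Fabp7* and -0.16 to 0.047 for *C1qa*. In males alone it was 0.026 for *Fabp7*, 0.11 for *C1qa*, 0.021 for *C1qb*, 0.0096 for *Tubb3*, 0.010 for *Hba-a1* and -0.035 for *March6*, and in females alone 0.018 for *Ncor1* and 0.0044 for *Reln*. For *March6* it was -0.00052 with median-of-ratios size factors, -0.0052 with no filter and -0.00056 in DESeq2. With 1 brain left out, the sex difference ran from -0.068 to 0.034 for *Slco1c1*, -0.029 to 0.18 for *Dio2* and -0.074 to 0.0055 for *Dio3*. The interaction ran from -0.088 to 0.14 for *Slco1c1*, -0.22 to 0.020 for *Crym*, -0.037 to 0.16 for *Dio3*, -0.27 to 0.27 for *Thrb* and -0.17 to 0.095 for *Hr*. Depth limits *Dio2*, *Dio3* and *Thrb* most, at 45 to 116 counts per brain.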
